A study of Homo sapiens with 12 samples.

Results

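Silymarin, the flavonolignan extract of milk thistle seed, was compared with mock treatment in cells labelled HepG2, a human hepatoma line, by 3 one-colour oligonucleotide arrays per group, 6 of the 12 arrays of the series. The 6 arrays were chosen by their titles alone. The other 6 arrays carry RNA of the same cells given glycyrrhizin or ursodeoxycholic acid, 3 each, and every agent was given at 25 µM. All 4 groups were grown in DMEM with fetal bovine serum, total RNA was extracted and its amplified copy was labelled with Cy5. For the treatment time, the vehicle given to mock cells and any batch, the sources used here state nothing. No label ties an array to a culture of its own. The p-values below therefore reflect array-to-array spread alone, and that spread may be technical.

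Each array gave 1 intensity per probe, which was analysed as its log2. A gene was represented by its brightest probe, which gave 13881 genes. Of these, 3904 averaged over 8 log2 units across the 12 arrays and are called bright, and 9977 are called dim. The distinction matters because the residual SD was a median of 0.24 log2 units in bright genes and 0.51 in dim genes. The 3 silymarin arrays correlated with each other across probes at r between 0.911 and 0.943 and the mock arrays at r between 0.921 and 0.936, where probes are not independent replicates. A silymarin array and a mock array correlated at a median r of 0.934. Silymarin replicate 2 stood slightly apart, with a median r of 0.911 to the other arrays.

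Silymarin is known as a free radical scavenger, and its constituents bind or modulate several proteins of xenobiotic and hormone sensing. Sensors often examined for plant phenolics are the aryl hydrocarbon receptor (AhR), a ligand-activated transcription factor whose classic targets are the CYP1 cytochromes, and NRF2, which turns on antioxidant enzymes when its inhibitor KEAP1 is modified. Flavonolignans have also been examined for slowing of the cell cycle. Cells short of amino acids or with a stressed endoplasmic reticulum activate the integrated stress response, in which ATF4 raises genes such as ASNS.

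The label of the cells was set against marker genes. Of 29 hepatocyte markers 23 were measured, and 3 of them were bright, with a median log2 intensity of 6.40 over the list. AFP averaged 6.89 and TTR 7.77. By contrast, 13 of 23 measured neuroblast and sympathetic neuron markers were bright (median 8.19, with tyrosine hydroxylase TH at 12.49), as were 6 of 17 fibroblast and mesenchymal markers (VIM 15.53, CDH2 14.82). The mesenchymal median was 6.72, and 6 of 12 measured leukocyte markers were bright as well (median 7.51). Over all genes the median was 6.70, and 3904 of 13881 were bright. Probes differ in how brightly they read a transcript, so these levels do not order the genes. Bright markers of several cell types therefore do not name the cells. Most hepatocyte markers lay in the dim range, which goes against the label but does not settle it. The cells are called by their label only. The intensities of the hepatocyte list summed to 3193 to 3641 in mock and 3150.5 to 3579 with silymarin, and those of the neuroblast list to 14496 to 16440 and 13703 to 15005. The sums of the mesenchymal list did not overlap, at 84607 to 101791 in mock and 78149 to 81943 with silymarin. Sums of intensities are carried by the brightest members, here VIM and CDH2, and do not speak for the rest of the list.

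No gene passed the test between silymarin and mock. With limma and Benjamini-Hochberg adjustment over 13881 genes, 0 genes (0.0%) had an adjusted p under 0.05 in either direction. At an unadjusted p under 0.05 there were 424 higher (3.05%) and 304 lower (2.19%), 728 in all. Among bright genes these were 119 higher (3.05%) and 72 lower (1.84%), where 195.2 in all would be expected by chance. The middle 90% of bright genes differed by −0.42 to 0.47 log2 units and of dim genes by −0.80 to 0.82. A difference of at least 2-fold, 1 log2 unit, was measured for 7 bright genes higher (0.179%) and 8 lower (0.205%), and for 293 dim genes higher (2.94%) and 264 lower (2.65%).

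How often the arrays of the groups separated upward or downward depended on single arrays. The 3 silymarin arrays all lay above the 3 mock arrays for 384 bright genes (9.84%) and all below for 233 (5.97%). Without mock replicate 1 the counts were 537 and 563, so the excess of higher genes turned, and without silymarin replicate 2 they were 482 and 455. Among dim genes the shares were 4.79% (478 genes) and 4.09% (408 genes). A positive difference, however small, was measured for 51.2% of bright and 52.7% of dim genes and a negative one for 48.8% and 47.3%. These shares are the background for every count of separated, higher or lower members given below, and such a count is a description with no test.

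**Figure D1:**
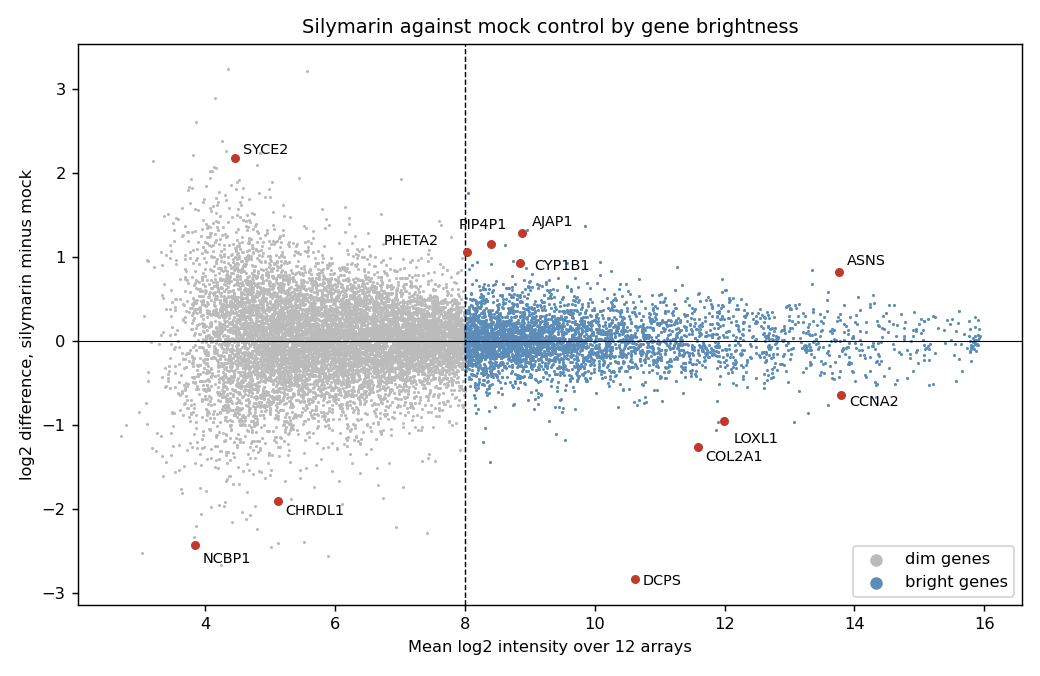
Log2 difference between silymarin and mock (vertical axis) against the mean log2 intensity over 12 arrays (horizontal axis), 1 point per gene, with dim genes in grey, bright genes in blue and named genes in red. The dashed line marks the limit of 8 between dim and bright. The spread narrows to the right, and DCPS at −2.84 lies far below the other bright genes.

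DCPS, which breaks down the cap structure remaining after an mRNA has been degraded, had the smallest p of any gene. Its log2 intensity was 11.71, 11.24 and 10.80 on the mock arrays and 8.79, 8.81 and 7.65 with silymarin. The highest silymarin array thus lay far below the lowest mock array. The means were 11.25 ± 0.45 and 8.41 ± 0.67 (SD, n = 3), and the log2 difference was −2.84 (SE 0.33, 95% interval −3.57 to −2.11), 7.15-fold lower. Its adjusted p of 0.0542 missed the threshold, and leaving out 1 array moved it between 0.0481 and 0.153. In bulk RNA, fewer cells that express a gene and less of its RNA per cell cannot be told apart, here and in each result below.

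Because dim genes add tests and noise, the same model was also fitted to the 3904 bright genes alone, and there 7 genes passed, 4 higher (0.102%) and 3 lower (0.0768%). The lower genes were DCPS (adjusted p = 0.00405), the cartilage collagen COL2A1 (0.00564) and LOXL1 (0.0451), a lysyl oxidase relative that helps crosslink elastic fibres. The higher genes were CYP1B1 (0.044), PIP4P1 (0.0443), PHETA2 (0.0443) and AJAP1 (0.0451). PHETA2 averaged 7.77 on the 9 arrays of the other groups and counted as bright only through its silymarin arrays, so its place in this fit rests on the values compared. The same holds for DUSP4 and SPG21, described below, which averaged 7.98 and 7.48 on those arrays. The count rested on single arrays: without 1 array it lay between 1 (without mock replicate 2) and 4 (without mock replicate 1). Fitted on the silymarin and mock arrays only, it was 0. Over all genes with a variance trend, 0 higher and 4 lower genes (0.0288%) passed, DCPS, COL2A1, LOXL1 and the cyclin CCNA2.

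COL2A1 measured 11.97, 12.17 and 12.01 in mock and 10.53, 10.94 and 10.91 with silymarin. LOXL1 measured 11.97, 12.53 and 12.32 in mock and 11.31, 11.41 and 11.24 with silymarin. In both genes all silymarin arrays lay below all mock arrays, with log2 differences of −1.26 (SE 0.19) and −0.95 (SE 0.20). Over all 13881 genes the adjusted p was 0.157 for COL2A1 and 0.48 for LOXL1.

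CYP1B1, a cytochrome that oxidises steroids and aromatic hydrocarbons and a standard AhR target, measured 9.06, 8.71 and 8.73 in mock and 9.73, 9.91 and 9.65 with silymarin. PIP4P1, a phosphoinositide phosphatase of late endosomes and lysosomes, measured 8.16, 8.06 and 8.29 in mock and 9.53, 9.53 and 8.94 with silymarin. PHETA2, a partner of the inositol phosphatase OCRL in endosomal sorting, measured 7.76, 7.94 and 7.58 in mock and 8.92, 8.72 and 8.83 with silymarin. In each of these genes the lowest silymarin array lay above the highest mock array, as it did for AJAP1, a membrane protein of adherens junctions, at 8.38, 8.56 and 9.03 in mock and 9.86, 9.92 and 10.07 with silymarin. The log2 differences were 0.93 (SE 0.18) for CYP1B1, 1.16 (SE 0.22) for PIP4P1, 1.06 (SE 0.20) for PHETA2 and 1.29 (SE 0.25) for AJAP1, and over all genes each had an adjusted p of 0.357.

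**Figure D2:**
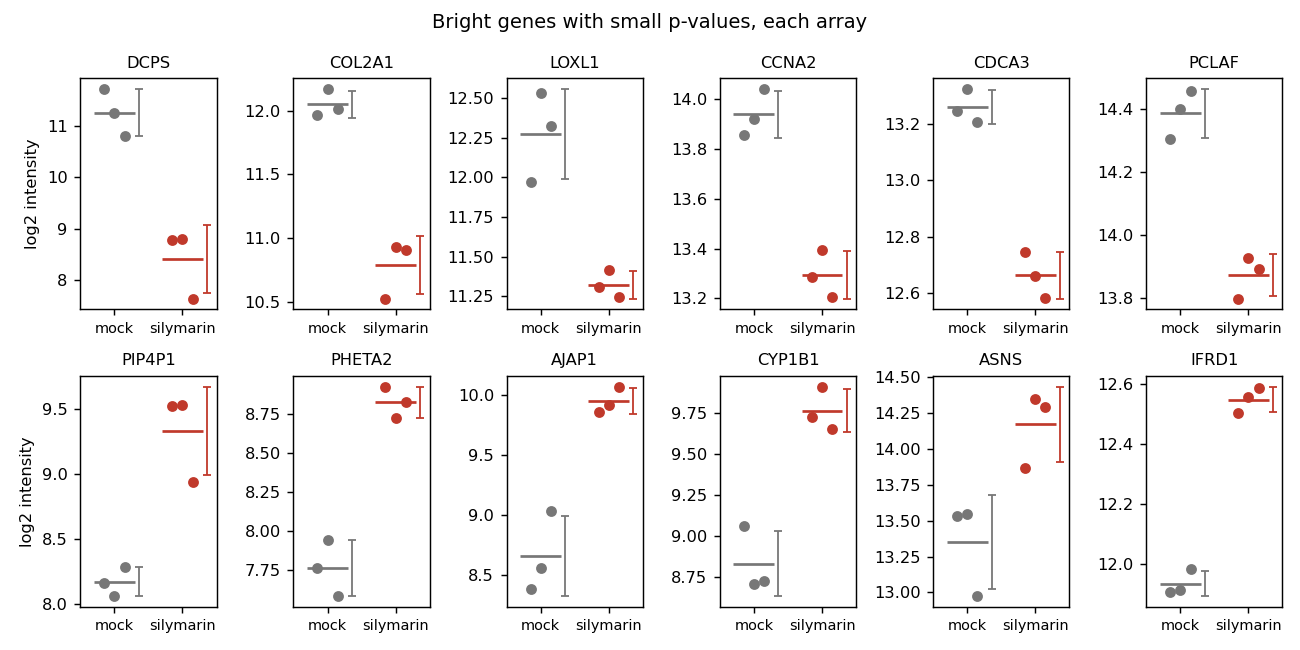
Log2 intensity of 12 bright genes on the 3 mock arrays (grey) and the 3 silymarin arrays (red), with the group mean as a line and the SD as a bar; each panel has its own vertical axis. In all 12 panels the groups do not overlap, with differences from −2.84 for DCPS to 1.29 for AJAP1.

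The other bright genes with small p-values did not pass in either fit. On the higher side, asparagine synthetase ASNS differed by 0.82 (SE 0.21, adjusted p = 0.801), cyclin C (CCNC), a part of the Mediator kinase module, by 0.93, the lipid phosphatase PLPP1 by 0.84, MCCC2 of leucine breakdown by 0.84, and FKBP11, a prolyl isomerase of the secretory pathway, by 0.94. IFRD1, a transcriptional co-regulator, separated tightly, at 11.91, 11.91 and 11.98 in mock and 12.50, 12.55 and 12.59 with silymarin. BTRC, the F-box protein that marks IκB and β-catenin for degradation, differed by 0.68, the RNA-binding PUM2 by 0.74, the homeobox gene IRX3 by 0.63 and the lens filament gene BFSP2 by 0.68. PSPHP1 (0.68) is a pseudogene whose probe may read its parent PSPH. A second, dimmer probe of PLPP1 differed by −0.48, so the direction for that gene rests on its bright probe.

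On the lower side, cyclin A2 (CCNA2), which drives S phase and entry into mitosis, measured 13.86, 13.92 and 14.04 in mock and 13.29, 13.40 and 13.21 with silymarin (log2 difference −0.64, SE 0.16, adjusted p = 0.801). CDCA3, which helps degrade the mitotic inhibitor WEE1, differed by −0.60 and PCLAF, a PCNA-binding factor of replicating cells, by −0.51. The microtubule-binding MAP1A was tight in both groups, at 12.75, 12.79 and 12.81 in mock and 12.28, 12.32 and 12.24 with silymarin. SRGAP3, a GTPase-activating protein of neurite outgrowth, differed by −0.72, the nuclear envelope spectrin SYNE2 by −0.79, the splicing regulator RBFOX2 by −0.53, the ubiquitin ligase HUWE1 by −0.77 and the transcription factor ZFHX3 by −0.85 (−0.34 and 0.15 at its dimmer probes). LCN1 (−0.67), a lipocalin of tears, the cytokine IL17B (−0.78) and the orphan receptor GPR173 (−0.57) completed the 15 lowest p-values on this side.

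Among dim genes the differences were larger and noisier. SYCE2, of the meiotic synaptonemal complex, measured 2.42, 3.48 and 3.17 in mock and 5.63, 4.96 and 5.03 with silymarin (2.19, adjusted p = 0.152), and the matrix glycoprotein TNC differed by 1.68, cadherin CDH22 by 2.10, the GTPase RHOJ by 1.75 and the lipid transfer protein BLTP1 by 1.60. NCBP1, the large subunit of the nuclear cap-binding complex, measured 4.54, 3.97 and 3.95 in mock and 0.87, 2.35 and 1.97 with silymarin (−2.42, adjusted p = 0.321). CHRDL1, a BMP antagonist, differed by −1.90, the kinase MAP4K5 by −1.91, the actin bundler LCP1 by −1.88 and the bicarbonate transporter SLC4A8 by −1.73. None passed. No detection call accompanied the values, so a probe as dim as that of NCBP1 cannot be told from background.

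In the AhR pathway, 4 of 8 measured genes were bright. CYP1B1 and PTGES3, a co-chaperone of the receptor complex that differed by 0.45 (SE 0.18), were separated upward. CYP1A2, the hepatic member of the family, measured 11.35, 11.39 and 11.20 in mock and 11.10, 11.29 and 11.42 with silymarin, and the groups overlapped (−0.04, SE 0.20). ARNT, the receptor's partner, differed by −0.03. AHR itself was dim, at 7.35, 7.64 and 7.38 in mock and 7.81, 7.64 and 8.04 with silymarin (0.37, SE 0.19, adjusted p = 0.932). The CYP1B1 difference was thus not accompanied by a separated CYP1A2.

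NRF2 targets gave no separated bright member. Of 24 NRF2 targets 19 were measured and 8 were bright, with 5 higher and 3 lower, a median of 0.05 and 0 separated in either direction. The largest difference was for the export pump ABCC2, at 7.82, 8.52 and 8.95 in mock and 9.01, 8.85 and 9.01 with silymarin (0.53, SE 0.27), where the groups overlapped. Thioredoxin TXN differed by 0.08. Among 14 bright glutathione and peroxide enzymes the median was 0.03 (0.16 without silymarin replicate 2), and 1, the peroxiredoxin of the endoplasmic reticulum PRDX4, was separated upward (0.51, SE 0.22). Of 9 bright phase I and II drug metabolism enzymes 0 were separated, with a median of 0.03 that ranged from −0.12 to 0.16 when 1 array was left out. The median over all 3904 bright genes was 0.01.

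Most bright mitotic genes lay lower, which 48.8% of all bright genes did. Of 44 genes of G2 and mitosis 34 were measured and 14 were bright: 11 were lower and 3 higher, and the median was −0.21. The silymarin arrays lay wholly below mock for 5 of the 14, against 5.97% of bright genes: CCNA2, CDCA3, CKS2 (−0.56), a subunit of the CDK complexes, cyclin B1 (CCNB1, −0.44) and the mitotic kinesin KIF20A (−0.44). These 5 had an unadjusted p under 0.05. None passed over all genes without a variance trend, with which CCNA2 did. Polo-like kinase PLK1 differed by −0.40 with overlapping arrays. Against the direction stood the centromere motor CENPE, separated upward (0.54, SE 0.51), and the phosphatase CDC25B (0.61, SE 0.45). The SE of CENPE includes the wide spread after ursodeoxycholic acid (SD 1.34), against an SD of 0.24 in mock and 0.14 with silymarin. The 20 dim members of the list had a median of 0.08. The median of the bright members ranged from −0.31 without silymarin replicate 2 to −0.10 without silymarin replicate 3. The 10 bright G1 and S phase regulators (median −0.05) did not lie as far down. Nor did the 11 bright DNA replication genes (−0.05, or −0.15 without mock replicate 3). Of the G1 and S phase regulators, E2F1 was separated downward (−0.36, SE 0.17) and E2F4 upward (0.33, SE 0.19).

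Promoters of mitotic genes often carry a cell cycle homology region, TTTGAA, and upstream CCAAT boxes, the sites through which the DREAM and NF-Y complexes are known to act. Within 300 bases around the start (250 before to 50 after), on either strand, TTTGAA was found in 8 of 13 bright G2 and mitosis genes with a RefSeq promoter (61.5%) and in 15.4% of all 27305 promoters, and CCAAT in 10 of 13 (76.9%) and 35.7%. The separated downward members are shown from 120 bases before to 30 after the start, 5′ to 3′ on the gene's strand (RefSeq, GRCh38.p14), because they carry these letters in different numbers. Capitals mark TTTGAA and CCAAT, or TTCAAA and ATTGG where the match is on the opposite strand, and the marked runs do not overlap.
CDCA3, chr12:6851257-6851406, minus strand: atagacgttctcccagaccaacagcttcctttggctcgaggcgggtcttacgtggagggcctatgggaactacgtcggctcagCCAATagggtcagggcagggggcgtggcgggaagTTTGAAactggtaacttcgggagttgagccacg
CKS2, chr9:89311075-89311224, plus strand: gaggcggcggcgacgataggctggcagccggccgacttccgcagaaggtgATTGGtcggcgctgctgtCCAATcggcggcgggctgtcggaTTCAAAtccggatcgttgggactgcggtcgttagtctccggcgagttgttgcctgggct
CCNA2, chr4:121823854-121824003, minus strand: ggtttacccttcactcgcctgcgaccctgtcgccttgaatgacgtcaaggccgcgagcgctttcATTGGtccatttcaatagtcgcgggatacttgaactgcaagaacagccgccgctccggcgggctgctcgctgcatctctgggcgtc
CCNB1, chr5:69167030-69167179, plus strand: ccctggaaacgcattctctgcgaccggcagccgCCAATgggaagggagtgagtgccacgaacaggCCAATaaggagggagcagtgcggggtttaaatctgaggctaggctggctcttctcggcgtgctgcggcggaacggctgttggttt
KIF20A, chr5:138178992-138179141, plus strand: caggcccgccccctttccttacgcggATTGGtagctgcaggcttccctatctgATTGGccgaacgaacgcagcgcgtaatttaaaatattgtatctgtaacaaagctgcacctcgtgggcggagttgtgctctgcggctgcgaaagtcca
CDCA3 and CKS2 hold TTTGAA close to the start, 3 and 29 bases before it, with CCAAT upstream. CCNA2, CCNB1 and KIF20A hold CCAAT but not the exact letters TTTGAA in these windows. Variants of these letters were not searched for, so the element may be present in another form. A match of letters is a description and was not tested as a site.

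Bright genes of the integrated stress response were split. Of 12 bright members 6 were higher and 6 lower, with a median of 0.07 (0.23 without silymarin replicate 3). ASNS measured 13.53, 13.55 and 12.97 in mock and 13.87, 14.35 and 14.30 with silymarin, and it was separated upward together with CEBPB, a transcription factor (0.59, SE 0.22), the reelin receptor VLDLR (0.62, SE 0.25) and the mTOR inhibitor DDIT4 (0.34, SE 0.24). ATF4, the factor at the centre of the response, was separated downward, at 9.92, 9.47 and 9.52 in mock and 9.46, 8.97 and 9.46 with silymarin (−0.34, SE 0.21). PSAT1 of serine synthesis (−0.16) and the pseudokinase TRIB3 (−0.06), further textbook ATF4 targets, lay below zero with overlapping arrays. The composite site of ATF4 and C/EBP factors, TGATGNAA, was found on either strand in 3 of 11 bright members with a promoter in the same set (27.3%) and in 3.67% of that whole set. ASNS is shown over the same window, with this element in capitals, 68 bases before the start, since it is the member with the smallest p.
ASNS, chr7:97872379-97872528, minus strand: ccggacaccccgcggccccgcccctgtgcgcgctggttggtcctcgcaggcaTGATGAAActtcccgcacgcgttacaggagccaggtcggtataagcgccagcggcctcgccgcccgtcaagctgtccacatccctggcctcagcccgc

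Transfer RNA synthetases, which charge tRNAs with amino acids, lay higher in 8 of 9 bright listed members, against 51.2% of all bright genes, with a median of 0.27. Those of tyrosine (YARS1, 0.80, SE 0.26), arginine (RARS1, 0.34) and tryptophan (WARS1, 0.28) were separated upward. YARS1 measured 9.06, 8.76 and 8.51 in mock and 9.75, 9.79 and 9.19 with silymarin. IARS1 differed by 0.56 with overlapping arrays and KARS1, the lysine enzyme, by −0.25. Leaving out 1 array kept the median between 0.19 and 0.29.

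Translation and ribosome genes differed by list. Of 13 bright genes of RNA polymerase I and ribosome biogenesis 9 were higher, with a median of 0.18 that was 0.02 without mock replicate 1. RRP9 (0.63), WDR12 (0.68) and RRP12 (0.29), all factors of ribosomal RNA processing, were separated upward. Of 17 bright initiation and elongation factors 11 were higher (median 0.18, or 0.08 without silymarin replicate 2), the scaffold EIF4G1 (0.58) and EIF3M (0.50) among the separated ones, while EIF3H, of the same complex as EIF3M, was separated downward (−0.52, SE 0.23). Among 10 bright cytosolic ribosomal proteins 8 were higher, with a median of 0.13 that was 0.06 without mock replicate 1. The 21 bright initiation factors by symbol were split, 11 higher and 10 lower with a median of 0.02, and of 18 bright mitochondrial ribosome genes 7 were higher and 11 lower, with a median of −0.09. In the list of mRNA cap, decay and export genes 18 of 21 bright members were higher, and the median was 0.13, or 0.03 without mock replicate 1. DCPS was the one bright member separated downward, and of 18 dim members 2 were, NCBP1 among them. The exonuclease XRN1 (0.18), the export factor NXF1 (0.24) and LSM6 (0.25) were separated upward there.

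Immediate early and hormone-responsive genes included several separated upward. Of 15 bright immediate early genes, which respond to growth factor signals within minutes, 9 were higher, with a median of 0.24. Separated upward were 4 of them, against 9.84% of bright genes. These were the MAP kinase phosphatases DUSP1 (0.91, SE 0.33) and DUSP4 (0.49), and the transcription factors EGR3 (0.65, SE 0.20) and NR4A2 (0.57, SE 0.20). DUSP1 measured 8.26, 8.30 and 8.25 in mock and 8.90, 9.61 and 9.05 with silymarin. DUSP4 counted among the bright members only through its silymarin arrays. FOSL2, an AP-1 subunit, differed by −0.58. All 6 bright genes of the glucocorticoid response were higher (median 0.33), with DUSP1, KLF9 (0.46) and the receptor co-chaperone FKBP4 (0.36) separated and TSC22D3 at 0.26 with overlapping arrays. DUSP1 counts in both lists. Without 1 array the medians ranged from 0.20 to 0.38 for immediate early genes and from 0.25 to 0.45 for the glucocorticoid response, the lower values without mock replicate 3 and mock replicate 2.

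All 5 bright p53 targets were higher, with a median of 0.34. The growth arrest gene GADD45A measured 11.96, 11.98 and 11.87 in mock and 12.46, 12.45 and 12.71 with silymarin (0.61, SE 0.32). The kinase PLK3 (0.65, SE 0.22) and the pro-apoptotic BBC3 (0.34) and BAX (0.25) were also separated upward. A second, dimmer probe of PLK3 differed by −0.38. The median was 0.21 without mock replicate 2, and the 14 dim members of the list had a median of −0.02. The list of apoptosis regulators, which also holds BAX, went the other way. Of its 8 bright members 3 were higher and 5 lower, with a median of −0.10 (−0.16 to −0.05 without 1 array). BMF had the smallest p there and differed by −0.47 with overlapping arrays (0.09 at its dimmer probe).

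**Figure D3:**
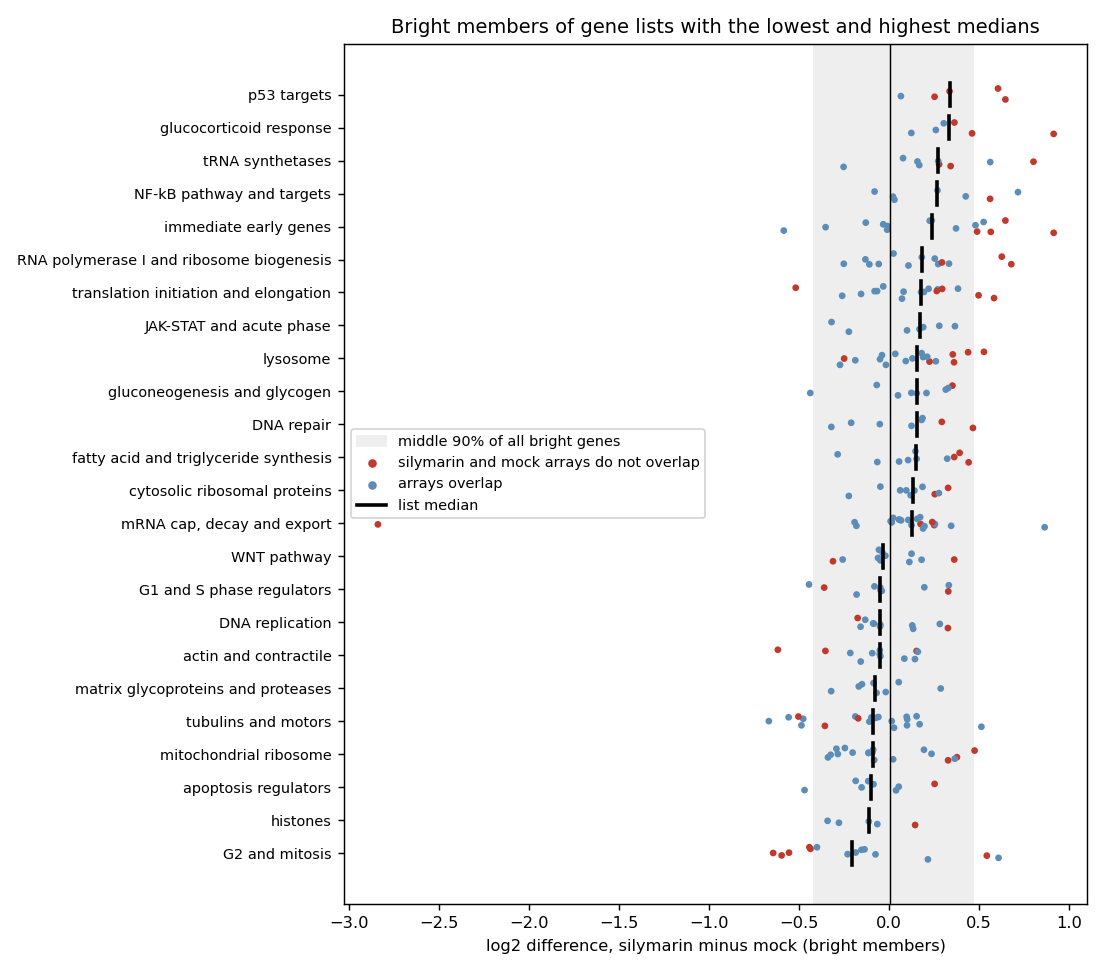
Log2 differences between silymarin and mock (horizontal axis) of the bright members of the 10 gene lists with the lowest and the 14 with the highest medians, among lists with at least 5 bright members, cell type markers aside. Red points are members whose silymarin and mock arrays do not overlap, black bars are list medians and the grey band holds the middle 90% of bright genes. G2 and mitosis lies lowest at −0.21 and p53 targets highest at 0.34, and most single members lie inside the band.

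Proteasome, lysosome and endosomal sorting genes lay slightly higher. Of 21 bright proteasome genes 15 were higher and 6 were separated upward, against 9.84% of bright genes, with PSMD3 (0.60), the activator PSME4 (0.51), PSMD11 (0.40) and PSMB5 (0.33) among them. Their median of 0.12 was 0.04 without silymarin replicate 2. Of 18 bright lysosome genes 12 were higher and 5 were separated upward, including the galactosidase GLA (0.44), the ceramidase ASAH1 (0.36) and the proton pump subunits ATP6V0B (0.53) and ATP6V1H (0.35), while cathepsin CTSF was separated downward (−0.25). Their median of 0.16 was 0.03 without mock replicate 1. Of 19 bright sorting nexins and VPS genes, which sort cargo at endosomes, 16 were higher (median 0.18) and 8 separated upward, among them VPS50 (0.51), VPS37A (0.50), SNX25 (0.47), SNX17 (0.30) and VPS33B (0.29). Their median stayed between 0.13 and 0.19 when 1 array was left out, though a far dimmer probe of VPS50 differed by −1.39. Of 18 bright RAB GTPases and effectors 7 were separated upward, with RAB11FIP5 (0.71), RAB5IF (0.66) and RAB4B (0.48) among them, yet the family's median was 0.03 (0.16 without mock replicate 1).

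Among families defined by gene symbol with at least 8 bright members, 46 in all, the dual specificity phosphatases had the highest median (0.29), followed by tRNA synthetases by symbol (0.28), DDX and DHX helicases (0.22), the sorting genes and the F-box genes (0.13, or 0.07 without silymarin replicate 2). The phosphatases reached 8 bright members only with DUSP4, which was bright only through its silymarin arrays. Their place in this order thus rests on the values compared. The phosphatases were not uniform: DUSP7, at 8.87, 8.32 and 8.20 in mock and 8.04, 7.12 and 7.68 with silymarin, and DUSP22 (−0.48) were separated downward. Of 13 bright helicases 11 were higher, with DDX1 (0.27), DDX5 (0.22), DDX17 (0.21) and DDX50 (0.55) separated upward and the splicing helicase DHX8 (−0.50) downward. A dimmer probe of DHX8 differed by 0.79, and with averaged probes its difference was 0.15, so its direction rests on the brighter probe.

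The lowest family medians were those of potassium channels (−0.19), kinesins (−0.18), interleukins and their receptors (−0.14), FOX genes (−0.10) and keratins (−0.10). Of 17 bright potassium channel genes 12 were lower. Separated downward, against 5.97% of bright genes, were KCNA1 (−0.35), KCNK15 (−0.26), KCNMA1 (−0.25) and KCNAB3 (−0.33). KCNJ1 (0.29) was separated upward. The potassium channel median stayed between −0.22 and −0.14 when 1 array was left out. That of interleukins and receptors was −0.04 without mock replicate 2. That of kinesins was 0.01 without silymarin replicate 2, as was that of FOX genes without silymarin replicate 3, and that of keratins was 0.04 without silymarin replicate 2.

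Matrix and cytoskeletal genes were mixed. Of 20 bright collagens and crosslinking enzymes 13 were lower with a median of −0.03, so COL2A1 and LOXL1 stood apart from their list. The collagen lysyl hydroxylase PLOD2 differed by −1.04 (SE 0.37), with silymarin replicate 1 at 8.49 within the mock range of 8.23 to 8.88 and the other silymarin arrays at 7.16 and 7.09. COL6A2 was separated upward (0.31, with −0.09 at its dimmer probe), and COL1A1 differed by −0.29 with overlapping arrays. Filamin FLNA, which crosslinks actin, measured 11.48, 11.87 and 11.80 in mock and 11.09, 11.25 and 10.96 with silymarin (−0.62, SE 0.20). Of 20 bright tubulin and motor genes 12 were lower, with MAP1A, TUBB2B (−0.36) and DCTN1 (−0.17) separated downward. N-cadherin CDH2, a mesenchymal marker, lay at 14.96, 14.98 and 14.82 in mock and 14.43, 14.53 and 14.49 with silymarin (−0.44, SE 0.16). CDH2 is also counted in the sums of mesenchymal markers given above. Over the 6 bright markers of that list the median difference was −0.23, with 5 lower and 1 higher. It ranged from −0.30 to −0.14 when 1 array was left out. Over all 17 measured markers the median was −0.045, with 0 separated upward and 1 downward. The part of these markers in the differences was not tested.

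Metabolic lists differed. Of 26 bright genes of oxidative phosphorylation 13 were higher and 13 lower, with a median of 0.03. In fatty acid and triglyceride synthesis 8 of 10 were higher (median 0.15, or 0.25 without silymarin replicate 1), with AGPAT2 (0.44, SE 0.16), ACLY (0.36), which supplies cytosolic acetyl-CoA, and the acyl-CoA synthetase ACSL4 (0.39) separated upward. ACSL4 measured 11.45, 11.39 and 11.41 in mock and 11.87, 11.75 and 11.80 with silymarin. Over the 10 bright genes of fatty acid and triglyceride synthesis the median difference from mock was 0.04 with glycyrrhizin and 0.20 with ursodeoxycholic acid. In gluconeogenesis and glycogen metabolism 7 of 9 bright genes were higher (median 0.15), and in the TCA cycle 5 of 9 (median 0.12). Squalene epoxidase SQLE was the separated gene among 8 bright sterol genes (0.43). Glycolysis was split, with GPI (0.61) and PFKFB2 (0.65) separated upward and ALDOC (−0.46, with 0.11 at its dimmer probe) and PFKL (−0.24) downward. Of 8 bright hypoxia-related genes 4 were separated upward, with HIF1A at 0.49 (SE 0.22) and VEGFA at 0.30 (SE 0.19).

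The silymarin arrays were also set against the mean of the glycyrrhizin and ursodeoxycholic acid arrays. This contrast uses the same silymarin arrays and leaves out the mock mean. The mock arrays still entered the shared estimate of the spread. In limma 12 of 13881 genes passed, 10 higher (0.072%) and 2 lower (0.0144%) with silymarin. DCPS differed by −3.0 (SE 0.29, adjusted p = 0.00596), with 11.44 ± 0.22 (SD, n = 3) after glycyrrhizin and 11.38 ± 0.05 after ursodeoxycholic acid. NCBP1 differed by −3.02 (adjusted p = 0.0125). CYP1B1 was higher by 1.38 (SE 0.16, adjusted p = 0.0104), AJAP1 by 1.51 (adjusted p = 0.0426) and PIP4P1 by 1.28 (adjusted p = 0.0442). For CYP1B1 the glycyrrhizin arrays lay at 8.05, 8.23 and 8.06, below mock, and the ursodeoxycholic acid arrays at 8.77, 8.52 and 8.71, so silymarin was the one agent whose arrays lay above the mock arrays. DCPS, AJAP1 and PIP4P1 likewise had the silymarin arrays apart from the arrays of all 3 other groups.

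Of the other genes that passed this contrast, 3 were close to mock with silymarin. MIEN1, which promotes cell migration from the membrane, measured 12.04, 12.02 and 12.02 in mock and 12.06, 12.14 and 12.03 with silymarin, against 10.48 ± 0.10 after glycyrrhizin and 10.73 ± 0.20 after ursodeoxycholic acid. The chloride channel CLCN2 and CYP1A2 had the same pattern: their silymarin differences from mock were 0.07 and −0.04, those of glycyrrhizin −1.34 and −1.33, and those of ursodeoxycholic acid −1.29 and −1.15. These differences from mock share the mock arrays. HIPK3, a nuclear kinase, and MTERF3, a regulator of mitochondrial transcription, differed from mock by 0.40 and 0.41 with overlapping arrays, and the dim AFTPH and SNRPD2 by 0.68 and 1.17 with separated arrays. Without 1 array the contrast called 2 to 7 genes, the lowest without silymarin replicate 1. DCPS passed in all 9 such fits and CYP1B1 in 7, PIP4P1 passed in 1, and AJAP1, CYP1A2, MTERF3, AFTPH and SNRPD2 passed in 0.

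**Figure D4:**
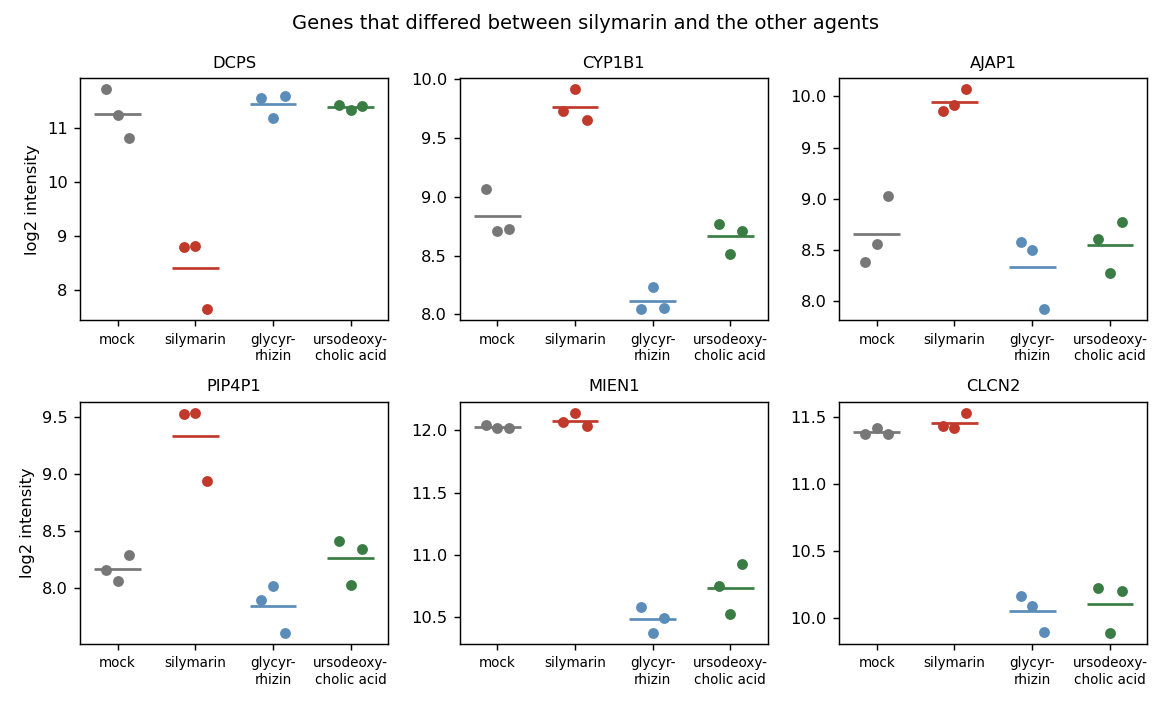
Log2 intensity of 6 genes on all 12 arrays in 4 groups, with the group mean as a line; each panel has its own vertical axis. In DCPS, CYP1B1, AJAP1 and PIP4P1 the silymarin arrays lie apart from the other 3 groups, whereas in MIEN1 and CLCN2 silymarin and mock lie together, above glycyrrhizin and ursodeoxycholic acid.

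Some genes with small p-values against mock lay on the same side of mock under all 3 agents. SYCE2 differed from mock by 2.19 with silymarin, 1.72 with glycyrrhizin and 1.88 with ursodeoxycholic acid, and CHRDL1 by −1.90, −2.27 and −1.83, where all 3 comparisons share the mock arrays. SYNE2 differed by −0.79, −1.47 and −1.58, and IL17B by −0.78, −0.79 and −0.88. Other genes named above also lay higher than mock under all 3 agents, in the same order. Among them were CCNC (0.93, 0.51 and 0.67), GPI (0.61, 0.60 and 0.35), ACLY (0.36, 0.23 and 0.40) and ASAH1 (0.36, 0.23 and 0.36). The test of silymarin against the other agents gave 0.39 (adjusted p = 0.658) for SYCE2 and 0.15 (adjusted p = 0.89) for CHRDL1. COL2A1 differed by −0.96 (adjusted p = 0.0845) in that test and LOXL1 by −0.87 (adjusted p = 0.116), and neither passed.

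A few of the largest bright differences rested on 1 array. SPG21 measured 8.85, 11.87 and 8.60 with silymarin against 7.70 to 8.26 in mock, and its log2 difference of 1.76 was 0.72 without silymarin replicate 2. FBXO10 measured 7.88, 13.14 and 8.89 and turned from 1.33 to −0.26 without the same array. RHBDF2 measured 9.17, 9.36 and 13.88 and turned from 1.36 to −0.17 without silymarin replicate 3.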

How the data were processed

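The values deposited by the authors are linear intensities, 1 for each probe on each array, already brought to 1 common distribution. The submitters' processing notes name limma, and the sources used here state no scanner, background correction or normalization step. The intensities ran from 1 to 65221 (median 86.1), and no detection call was used. Of 27561 probes 15650 had 1 gene symbol and 11911 had none; 2355 older symbols were updated through a RefSeq gene table. Intensities were log2-transformed, a gene was read from its brightest probe by the mean of all 12 arrays, and limma 3.58.1 in R 4.3.3 (lmFit, eBayes) was fitted with 1 mean per group over 12 arrays (8 residual and 2.71 prior degrees of freedom). Tests were two-sided, p-values were adjusted by Benjamini-Hochberg over 13881 genes, and the threshold was 0.05. The number of arrays limits the precision. Arrays of 2 groups are called separated when every array of one lies above every array of the other. The fit was tested on simulated data.

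The rule for naming genes took the 15 bright genes with the smallest p in each direction, 5 dim genes in each direction, and of each list or leading family the members with separated arrays and the smallest p; some further members, SPG21, FBXO10 and RHBDF2 were named after their values were seen. The lists, families and this comparison were chosen with earlier results of these data known. Alternatives were the replicate number as a block, renormalization, averaged probes, bright genes alone, a variance trend, array weights, the compared groups alone, offsets of 16 and 50, bright limits of 7 and 9 and each array left out. Combinations with the fit on bright genes alone, the gene lists without each array and the probes with no symbol were added after seeing the data.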

Additional observations from a re-analysis of the deposited data

Results flagged for a closer look

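The 12 genes below differed between silymarin and the mean of the other agents by a test of that difference itself, the limma contrast over all genes. The mock arrays entered it only through the shared estimate of the spread. Fitted without the mock arrays, the contrast called 5 genes. Higher with silymarin, on the log2 scale, were SNRPD2, a core protein of spliceosomal particles, by 1.86, HIPK3 by 1.65, AJAP1 by 1.51, MIEN1 by 1.47, CLCN2 by 1.39, CYP1B1 by 1.38, MTERF3 by 1.36, AFTPH, a clathrin adaptor partner, by 1.34, PIP4P1 by 1.28 and CYP1A2 by 1.20. Lower were DCPS by −3.0 and NCBP1 by −3.02. DCPS acts on the cap left after mRNA decay, and NCBP1 is the large subunit of the nuclear cap-binding complex. A link between their differences was not tested. The NCBP1 probe is dim, and a group comparison near background has little precision.

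Against mock, the same silymarin arrays differed by −2.84 for DCPS and −2.42 for NCBP1, and by 0.05 for MIEN1, 0.07 for CLCN2 and −0.04 for CYP1A2. The CYP1A2 value rests on 1 probe with a mean of 10.68 in cells whose hepatocyte markers were mostly dim, and whether it reads that transcript was not tested. With only 3 arrays in a group, single stray arrays within a group were not tested for.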

How the results depend on the processing

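Silymarin against mock called 0 genes with the replicate block, renormalization, centring, averaged probes or the compared groups alone. It called 7 among bright genes alone, 4 with a variance trend (CCNA2, COL2A1, DCPS and LOXL1), 1 with array weights, 1 with an offset of 16, 2 with an offset of 50, and 0 to 3 when 1 array was left out, the 3 without silymarin replicate 1 being DCPS, PRKD3 and SLC24A3. Within the fit on bright genes alone, the 7 became 2 with the replicate block, 18 with a variance trend, 111 with array weights, 0 with the compared groups alone, 2 at a bright limit of 7, 3 at a limit of 9, and 1 to 4 without 1 array. Silymarin against the other agents called 12 genes, 1 with the replicate block (DCPS), 240 among bright genes alone, 168 with a variance trend, 22 with array weights, 5 with the compared groups alone, 94 with an offset of 50 and 2 to 7 without 1 array. With 3 arrays against 2, separated genes numbered 482 to 735 (bright, higher), 340 to 563 (bright, lower), with 537 against 563 without mock replicate 1, 906 to 1202 (dim, higher) and 748 to 961 (dim, lower); fewer arrays have to separate there. Same-numbered mock and silymarin arrays deviated together with r of 0.11, 0.07 and −0.07. The main fit used no block because the labels do not say what a shared replicate number means. Direction turned for ARNT (0.026 with array weights, −0.13 to 0.11 without 1 array), CYP1A2 (−0.12 to 0.046), TRIB3 (−0.13 to 0.026), FBXO10 (−0.26 to 2.37) and RHBDF2 (−0.17 to 2.18) without 1 array, TXN (−0.23 with averaged probes, −0.023 to 0.15 without 1 array), PSME1 (0.029 with averaged probes), VPS50 (−0.44 with averaged probes) and DHX8 (0.15 with averaged probes). The causes were not tested.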

Other observations

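Growth signalling genes gave a few separated members on both sides. Of 13 bright genes of the MAPK cascade list 8 were higher, and the small GTPase HRAS (0.64, SE 0.24) and the kinase MAP3K1 (0.44) were separated upward. In the PI3K, AKT and mTOR list, with a median of 0.04 over 14 bright members, the insulin-like growth factor receptor IGF1R measured 11.57, 11.79 and 11.74 in mock and 11.33, 11.32 and 11.20 with silymarin (−0.42, SE 0.16), and AKT2 was separated downward as well (−0.40). The thyroid hormone receptor THRA was separated downward among 10 bright nuclear receptors (−0.45, SE 0.16). None passed over all genes. Of 22 measured interferon-stimulated genes 3 were bright, and 13 of the 19 dim members were higher, with a median of 0.21.

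The 11911 probes with no gene symbol were fitted together with all other probes. Limma called 0 of them in either direction, with 643 at an unadjusted p under 0.05.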
